A study of Mus musculus with 28 samples.

Results

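The effect of kainic acid on ribosome-bound RNA of hippocampal CA1 was compared between excitatory neurons tagged through CaMK2a-Cre and interneurons tagged through parvalbumin (PV)-Cre, as the CaMK2a effect minus the PV effect. The contrast used the 14 anti-HA immunoprecipitate (IP) libraries among the 28 libraries of the series, and the 14 lysate (input) libraries served as a second reading of the same tissue. All mice were C57BL/6 and 3 to 4 weeks old. The 3 CaMK2a IP libraries after kainic acid and the 3 after PBS came from CaMK2a-Cre/+; LSL-Rpl22-HA/+ mice, with CA1 of 4 mice in a pool. The 4 PV IP libraries after kainic acid and the 4 after PBS came from PV-Cre/+; LSL-Rpl22-HA/+ mice, with 9 to 10 mice in a pool. Per the labels, tissue was dissected 6 h after the injection, while column names in the tables put PBS at 0 h, so the time after PBS is uncertain. Every group carries Cre and the tagged ribosomal protein, and no group lacks them. Which cells carry the tag depends on where each Cre has been active, and the CaMK2a and PV lines also differ in pool size, in RNA input (20 ng and 2.5 ng) and in replicate spread.

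Kainic acid is an agonist of glutamate receptors that provokes seizures, and strong firing switches on a transcriptional programme in neurons. Immediate early genes encode transcription factors such as Fos, Egr1 and Npas4, and later genes encode secreted peptides, matrix proteins, synaptic scaffolds and feedback inhibitors of the kinase pathways that started the response. Much of the first wave is common to many neuron types, whereas part of the later wave differs between excitatory neurons and interneurons. In a RiboTag experiment Cre lets a cell make an epitope-tagged Rpl22, so that ribosomes and the transcripts on them can be pulled from a whole-tissue lysate.

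Counted reads per library ran from 7.48 to 15.8 M in the IP and from 6.06 to 11.1 M in the input. Values are given in CPM, reads per M counted reads after TMM scaling over the 14 IP libraries. Camk2a, an excitatory neuron kinase, averaged 6417 ± 569.9 CPM after kainic acid in the CaMK2a IP and 7930.2 ± 718 after PBS, and 4644 ± 1298 in the PV IP after kainic acid and 4259 ± 602 after PBS (SD, n = 3, 3, 4 and 4). Gad1, which makes GABA, averaged 52.9 ± 17.2 CPM after kainic acid in the CaMK2a IP and 25.8 ± 3.92 after PBS, and 1051 ± 274 in the PV IP after kainic acid and 868 ± 28.9 after PBS. Pvalb averaged 1.53 ± 0.613 CPM after kainic acid in the CaMK2a IP and 3.27 ± 0.540 after PBS, and 107 ± 37.8 in the PV IP after kainic acid and 148 ± 26.7 after PBS. Sums over marker lists read the same way. The 15 measured of 16 PV interneuron markers summed to a median of 890.0 CPM after kainic acid in the CaMK2a IP and 801 after PBS, against 6719 and 7068 in the PV IP. The 12 of 14 pyramidal markers summed to 11619.9 CPM after kainic acid in the CaMK2a IP and 13787 after PBS, against 6521 and 5751 in the PV IP, and 12 of 14 oligodendrocyte markers to 877 and 834 CPM, against 4590.1 and 4560.5. The PV IP was thus rich in interneuron transcripts but also held excitatory and glial ones, whose part in the differences was not tested. No measured marker of pyramidal cells, PV interneurons, astrocytes, oligodendrocytes, microglia or vessels was at 0 in all libraries of a group. PV replicate 4 stood apart from the other PV libraries. Mitochondrial transcripts made up 0.91% of its counts in the IP after kainic acid and 0.795% after PBS, against 2.80 to 3.38% and 1.90 to 2.01% in PV replicates 1 to 3, and 4.83% and 4.10% in its inputs, against 10.4 to 10.7% and 7.99 to 9.67%. In the CaMK2a IP they made up 0.624 to 0.927% after kainic acid and 0.549 to 0.752% after PBS. Several response genes differed in PV replicate 4 too, Fos and Inhba below among them. Without its 2 IP libraries the differences of the 11 genes called below ran from -1.99 to 4.58 on the log2 scale, with all 11 still called by edgeR. In bulk libraries of this kind fewer cells of a type and less RNA per cell cannot be told apart.

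Most of the kainic acid response that could be measured in both lines did not pass as different between them. Of 11781 genes tested, 8 (0.0679%) had a kainic acid effect called higher in the CaMK2a IP than in the PV IP and 3 (0.0255%) had one called lower (edgeR quasi-likelihood test, adjusted p under 0.05). The 8 were Tll1, Acan, Bag3, Lbh, Cgref1, Ubash3b, Fam43a and Pcdh8, and the 3 were Egr1, Klf3 and March4. At an unadjusted p under 0.05 there were 719 genes, or 6.10%, and the median standard error (SE) of a difference was 0.45 on the log2 scale. Within a line, kainic acid raised 2111 of 10663 genes (19.8%) and lowered 1633 (15.3%) in the CaMK2a IP, and raised 450 of 11107 (4.05%) and lowered 89 (0.801%) in the PV IP. The biological coefficient of variation was 14.8% in the CaMK2a IP and 44.3% in the PV IP, so the counts of the 2 lines are not a measure of how strongly each responded. The test of the difference fitted a spread shared by both lines, with a coefficient of 37.7%, so its errors and intervals do not follow the unequal spread. Whether calls lost with a library left out reflect that library or this shared spread was not tested. In 1 fit of all 14 IP libraries the order of the counts turned, with 714 rises and 235 falls in the CaMK2a IP and 765 and 345 in the PV IP. The number of called differences moved with single libraries: 11 genes became 2 without CaMK2a PBS replicate 2, 4 without CaMK2a PBS replicate 1 or 3, 6 without CaMK2a kainic acid replicate 3 and 24 without PV kainic acid replicate 4. With PV replicates 1 to 3 alone, 39 genes were called higher and 31 lower. Falls in the CaMK2a IP numbered 1013 and 979 without CaMK2a PBS replicate 1 and 3, and falls in the PV IP between 30 and 49 without any 1 of kainic acid or PBS replicates 1 to 3, and 164 without PV kainic acid replicate 4.

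**Figure D1:**
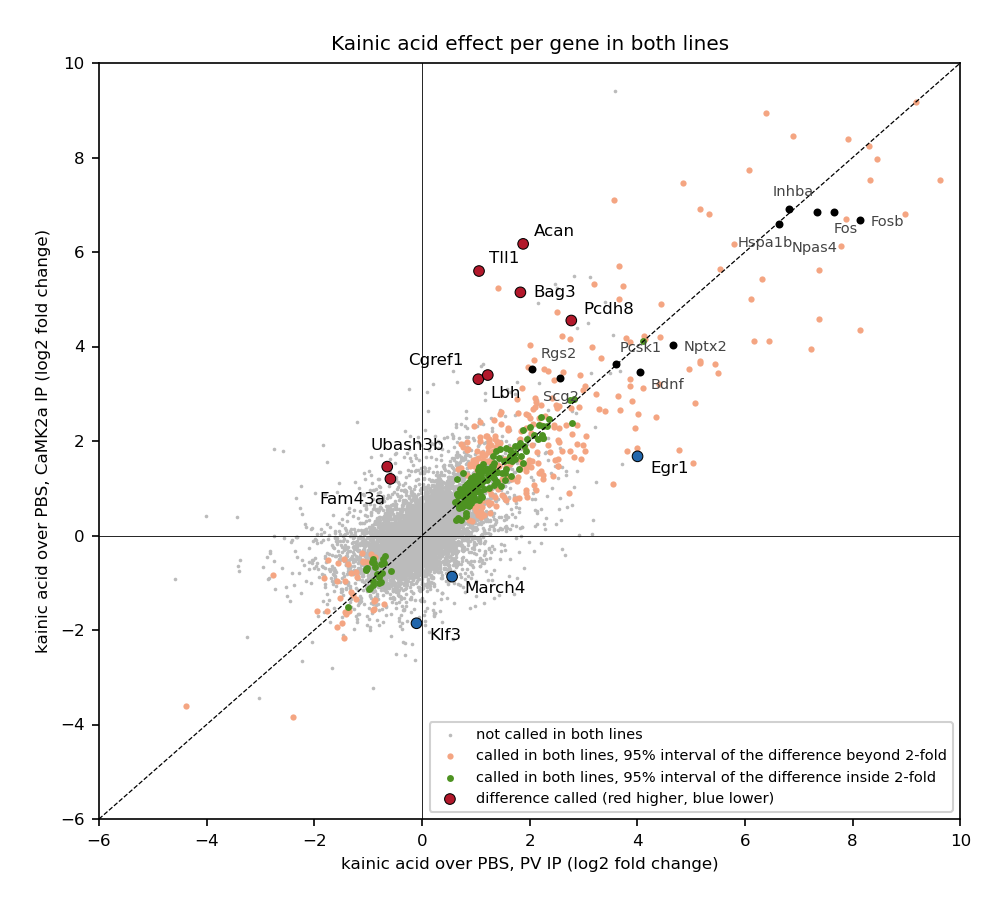
Kainic acid effect (log2 fold change) in the PV IP on the horizontal axis and in the CaMK2a IP on the vertical axis, 1 point a gene tested in both lines, with the line of equal effect dashed. Coloured points are genes called in both lines, with an interval of the difference inside 2-fold (green) or reaching beyond it (orange), and genes whose difference was called higher (red) or lower (blue). Beyond the axes lie 2 genes, and Tll1, Acan and Bag3 stand above the dashed line while Egr1 stands below it.

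Tll1 encodes a tolloid-like metalloprotease that trims procollagens and antagonists of bone morphogenetic proteins (gene ID 21892, chr8:64013098-64205993, minus strand, 23 exons). It had 38.1, 45.8 and 74.5 CPM in the CaMK2a IP after kainic acid, against 0.512, 1.04 and 1.93 CPM after PBS. The PV IP held 105, 125, 72.4 and 94.6 CPM after kainic acid and 45.1, 64.6, 49.3 and 33.0 CPM after PBS. Kainic acid libraries lay above PBS libraries in both lines without overlap, and the 3 CaMK2a PBS libraries, with 8, 8 and 20 reads, were the lowest of the 14. The log2 effect was 5.60 ± 0.39 in the CaMK2a IP and 1.06 ± 0.24 in the PV IP, both called (adjusted p = 8.3e-06 and 0.014). The difference of 4.51 ± 0.49 (95% interval 3.48 to 5.55, adjusted p = 0.00016) was the greatest among the 11 called genes and was called in all 25 alternatives. The CaMK2a PBS level rests on 36 reads in all, and the difference ran from 4.08 to 5.12 on the log2 scale over those alternatives.

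Acan encodes aggrecan, the core proteoglycan of the perineuronal nets that wrap PV interneurons (gene ID 11595, chr7:79053202-79115099, plus strand, 18 exons). The CaMK2a IP held 16.5, 15.9 and 33.8 CPM after kainic acid, against 0.320, 0.518 and 0.0965 CPM after PBS, where only 5, 4 and 1 reads were counted. The PV IP held 23.8, 15.8, 47.3 and 45.6 CPM after kainic acid and 6.58, 10.1, 13.7 and 6.02 CPM after PBS. Groups did not overlap in either line, and after kainic acid the ranges of both lines overlapped with each other. The difference was 4.29 ± 0.73 (adjusted p = 0.018), from effects of 6.17 ± 0.48 and 1.88 ± 0.40. The call was lost without CaMK2a kainic acid replicate 3 or without any 1 of the 3 CaMK2a PBS libraries, where the adjusted p reached 0.13.

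Bag3 encodes a co-chaperone that couples heat shock proteins to selective autophagy (gene ID 29810, chr7:128523583-128546981, plus strand, 4 exons). Its level was 191, 183 and 239 CPM in the CaMK2a IP after kainic acid, against 6.08, 6.21 and 5.21 CPM after PBS. In the PV IP it was 56.0, 57.8, 72.3 and 86.1 CPM after kainic acid and 14.8, 24.4, 14.9 and 23.1 CPM after PBS. All 3 CaMK2a libraries after kainic acid were above every PV library, whereas all 3 after PBS were below every PV library. The effects were 5.15 ± 0.15 and 1.83 ± 0.27 on the log2 scale, and their difference of 3.31 ± 0.32 (adjusted p = 4.9e-05) was called in all 25 alternatives.

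Pcdh8 encodes a protocadherin, also known as arcadlin, that is induced by activity and takes part in the uptake of N-cadherin at synapses (gene ID 18530, chr14:79766772-79771312, minus strand, 3 exons). It had 235, 228 and 269 CPM in the CaMK2a IP after kainic acid, against 9.28, 10.5 and 12.0 CPM after PBS, and the PV IP had 145, 121, 143 and 138 CPM after kainic acid and 17.99, 16.9, 26.9 and 18.9 CPM after PBS. Libraries of a group were close together, and kainic acid and PBS did not overlap in either line. Pcdh8 rose in both lines, by 4.55 ± 0.13 in the CaMK2a IP and by 2.77 ± 0.22 in the PV IP, with a difference of 1.77 ± 0.26 (adjusted p = 0.0061, and 0.057 without CaMK2a PBS replicate 2). Its exons overlap a gene on the opposite strand, and strandedness is not stated, so reads of the 2 cannot be told apart. The same holds for Klf3 below, and for Kdm6b, Gal3st3 and Bdnf, among the 34 genes described one by one.

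Lbh and Cgref1 rose in both lines as well. Lbh encodes a transcriptional cofactor first described in limb bud and heart (gene ID 77889, chr17:72918305-72941946, plus strand, 3 exons) and had 233, 81.2 and 152 CPM in the CaMK2a IP after kainic acid, against 12.9, 15.9 and 19.1 CPM after PBS. Its PV IP values were 221, 209.5, 258 and 247 CPM after kainic acid and 131, 129.9, 101 and 95.5 CPM after PBS, so all PV PBS libraries were above the CaMK2a PBS libraries, and the lines overlapped after kainic acid. The Lbh difference was 2.25 ± 0.36 (adjusted p = 0.013). Cgref1, which encodes a secreted EF-hand protein linked to growth control (gene ID 68567, chr5:30933143-30945480, minus strand, 6 exons), had 96.9, 71.7 and 104 CPM in the CaMK2a IP after kainic acid, against 8.12, 9.57 and 8.69 CPM after PBS. The PV IP held 44.3, 60.5, 72.9 and 55.3 CPM after kainic acid and 26.7, 35.0, 18.7 and 20.4 CPM after PBS. Its groups did not overlap in either line, and its difference was 2.17 ± 0.34 (adjusted p = 0.013). The Lbh call was lost without CaMK2a PBS replicate 1 or 2 and with voom (adjusted p up to 0.081), and the Cgref1 call without CaMK2a kainic acid replicate 3 or any 1 CaMK2a PBS library (up to 0.079).

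Ubash3b and Fam43a rose in the CaMK2a IP and had lower fitted values after kainic acid in the PV IP, where neither was called. Ubash3b encodes a phosphatase that dampens tyrosine kinase signalling (gene ID 72828, chr9:41011091-41161692, minus strand, 18 exons). It had 136, 63.8 and 82.2 CPM in the CaMK2a IP after kainic acid, against 30.3, 35.5 and 38.1 CPM after PBS, and 328, 376, 263 and 246 CPM in the PV IP after kainic acid, against 469, 652, 464 and 331 CPM after PBS. The PV groups overlapped in 1 PBS library, replicate 4, and every PV library was above every CaMK2a library. Its effects were 1.46 ± 0.24 in the CaMK2a IP and -0.65 ± 0.21 in the PV IP (adjusted p = 0.1), with a difference of 2.10 ± 0.35 (adjusted p = 0.014). Fam43a (gene ID 224093, chr16:30599723-30602797, plus strand, 1 exon) had 38.8, 32.5 and 30.0 CPM in the CaMK2a IP after kainic acid, against 16.4, 13.1 and 14.9 CPM after PBS, and 66.8, 56.4, 60.9 and 62.3 CPM in the PV IP after kainic acid, against 67.6, 111, 109 and 85.7 CPM after PBS. Its PV groups did not overlap, but the PV effect of -0.59 ± 0.21 missed the threshold (adjusted p = 0.15). The Fam43a difference was 1.79 ± 0.28 (adjusted p = 0.013). Leaving out any 1 CaMK2a PBS library ended the Ubash3b call (adjusted p up to 0.091), and leaving out CaMK2a PBS replicate 2 or 3 ended the Fam43a call (up to 0.066).

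Egr1, an immediate early zinc finger transcription factor, was the 1 gene that rose in both lines with a called difference in favour of the PV IP (gene ID 13653, chr18:34861207-34864956, plus strand, 2 exons). Its level was 2583, 990.2 and 1626 CPM in the CaMK2a IP after kainic acid, against 591, 490.0 and 567 CPM after PBS. The PV IP held 1255, 733, 1413 and 2214 CPM after kainic acid and 104, 69.4, 107 and 73.2 CPM after PBS. The lines overlapped after kainic acid, while after PBS each CaMK2a library was above each PV library. The effects were 1.68 ± 0.27 and 4.00 ± 0.30 on the log2 scale, and the difference was -2.33 ± 0.44 (95% interval -3.25 to -1.42, adjusted p = 0.043). This is the least stable of the 11 calls together with March4: it held in 12 of 25 alternatives and in 3 of the 14 with a library left out, the adjusted p reaching 0.21, while its value stayed between -2.77 and -1.99. Upper-quartile scaling, voom and the loss of any 1 library other than CaMK2a kainic acid replicate 1 or PV kainic acid replicate 2 or 4 ended it.

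Klf3 and March4 fell in the CaMK2a IP. Klf3 encodes a Krüppel-like transcriptional repressor (gene ID 16599, chr5:64803523-64832901, plus strand, 7 exons), with 32.5, 32.7 and 25.7 CPM in the CaMK2a IP after kainic acid, against 101, 119 and 113 CPM after PBS. The PV IP held 109, 138, 126 and 69.1 CPM after kainic acid and 119, 134, 123 and 102 CPM after PBS, and these groups overlapped. The Klf3 effects were -1.86 ± 0.13 in the CaMK2a IP and -0.10 ± 0.22 in the PV IP, with a difference of -1.76 ± 0.29 (adjusted p = 0.014). March4 encodes a membrane-bound ubiquitin ligase (gene ID 381270, chr1:72427112-72536564, minus strand, 6 exons) and had 33.9, 39.1 and 35.9 CPM in the CaMK2a IP after kainic acid, against 69.4, 67.4 and 64.6 CPM after PBS. Its PV IP values were 89.0, 124, 117 and 118 CPM after kainic acid and 54.5, 87.0, 91.7 and 73.5 CPM after PBS, also overlapping. The March4 effects were -0.87 ± 0.10 in the CaMK2a IP and 0.56 ± 0.21 in the PV IP (adjusted p = 0.18 in the PV IP), and the difference was -1.43 ± 0.27 (adjusted p = 0.043). The Klf3 call was lost without CaMK2a kainic acid replicate 3 or any 1 CaMK2a PBS library (adjusted p up to 0.10), and the March4 call held in 15 of 25 alternatives, ending without any 1 of the 6 CaMK2a libraries, PV kainic acid replicate 2 or 3 or PV PBS replicate 1 or 4 (up to 0.21).

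**Figure D2:**
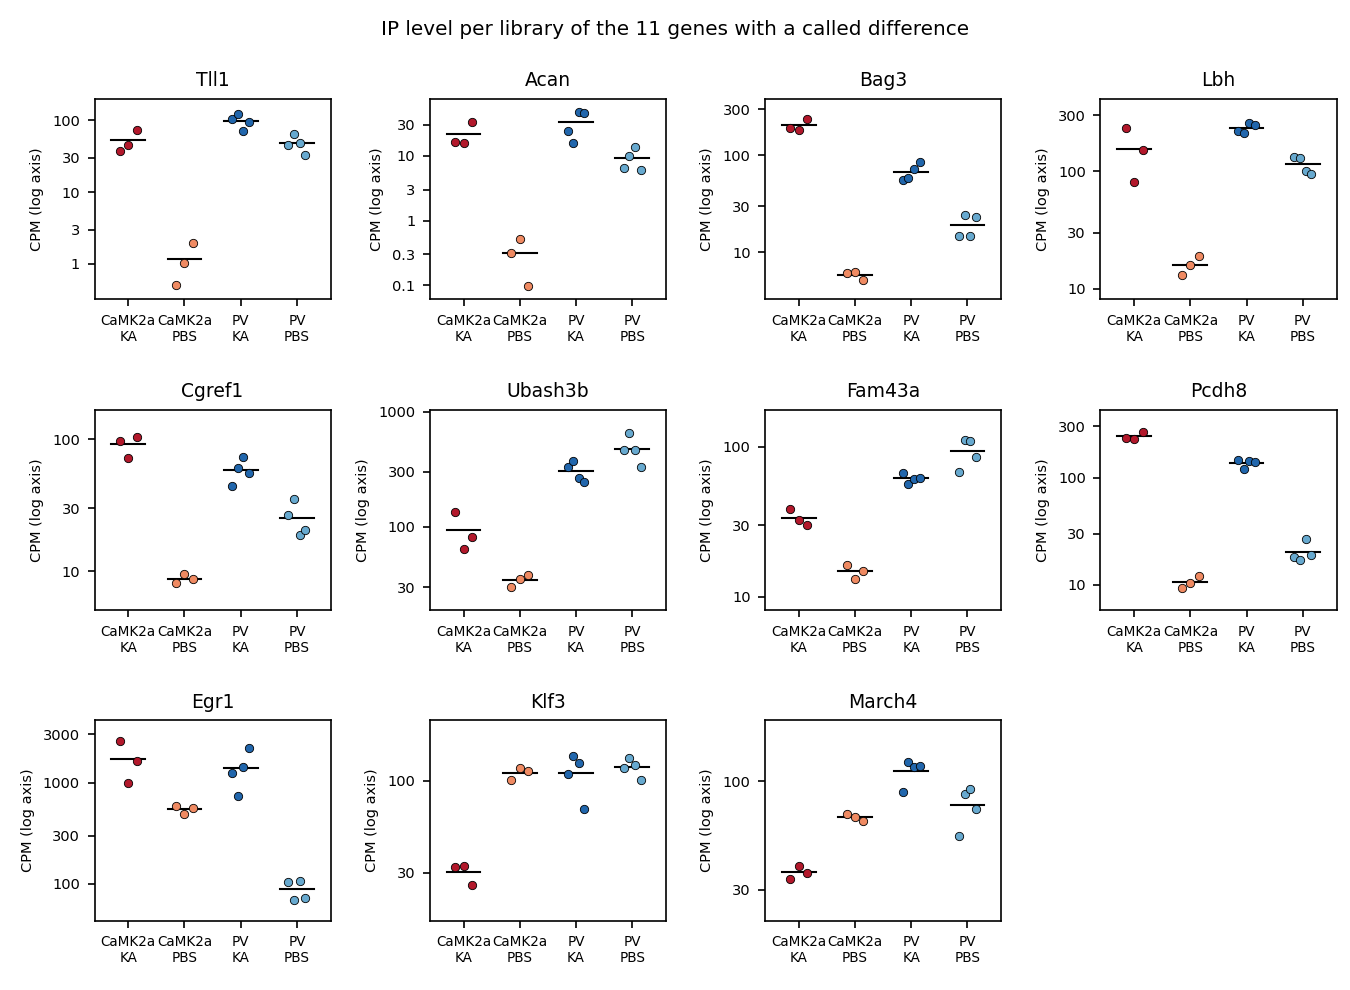
Level (CPM, log axis) of the 11 genes with a called difference in each of the 14 IP libraries, 1 point a library and a line at the arithmetic mean, in the order CaMK2a kainic acid, CaMK2a PBS, PV kainic acid, PV PBS. The CaMK2a PBS libraries are the lowest for the 8 genes with a higher effect in the CaMK2a IP, and the PV PBS libraries are the lowest for Egr1.

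Level differences between the lines were called in 9 of the 11 genes after PBS and in 8 of the 11 after kainic acid. Over all genes, 1382 (11.7%) were called higher and 1680 (14.3%) lower in the CaMK2a IP than in the PV IP after PBS, and 1569 (13.3%) and 1588 (13.5%) after kainic acid. All 8 genes with a higher effect in the CaMK2a IP had a lower PBS level there, from -5.42 ± 0.42 for Tll1 to -0.93 ± 0.19 for Pcdh8 on the log2 scale. After kainic acid the level difference was -0.91 ± 0.30 for Tll1 and -0.59 ± 0.42 for Acan, and the Acan value was not called (adjusted p = 0.33). Bag3 changed sides, with -1.73 ± 0.24 after PBS and 1.59 ± 0.21 after kainic acid, both called, and so did Pcdh8 and Cgref1. Egr1 had a PBS level 2.63 ± 0.31 higher in the CaMK2a IP and a kainic acid level that was not called different (0.30 ± 0.30, adjusted p = 0.49). Klf3 and March4 had PBS levels that were not called different (-0.11 ± 0.20 and -0.19 ± 0.19) and lower levels after kainic acid in the CaMK2a IP (-1.87 ± 0.22 and -1.62 ± 0.20). These levels share their libraries with the difference and are a description.

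On a linear scale 4 of the 11 differences were within their error. The gain after kainic acid over PBS in Tll1 was 51.6 ± 11.1 CPM in the CaMK2a IP and 51.1 ± 12.7 CPM in the PV IP (SE). The gain in Acan was 21.7 ± 5.85 and 24.0 ± 8.06 CPM, that in Lbh 139.5 ± 43.9 and 119 ± 14.5 CPM, and that in Egr1 1184 ± 464 and 1315 ± 307 CPM, in the CaMK2a IP and the PV IP. For these 4 genes the gains of the lines differed by less than 1 SE of that difference. Bag3 gained 199 ± 17.4 CPM in the CaMK2a IP and 48.7 ± 7.49 CPM in the PV IP, Pcdh8 233 ± 12.6 and 117 ± 5.95 CPM, and Cgref1 82.2 ± 9.90 and 33.1 ± 6.99 CPM. In those 3 genes, and in Klf3 with -80.8 ± 5.65 CPM in the CaMK2a IP and -8.96 ± 16.5 CPM in the PV IP, the linear gains differed in the same direction as the log2 effects. Ubash3b, Fam43a and March4 had mean changes of opposite sign in the lines, on either scale. Linear gains were added after the data were seen and carry no test.

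**Figure D3:**
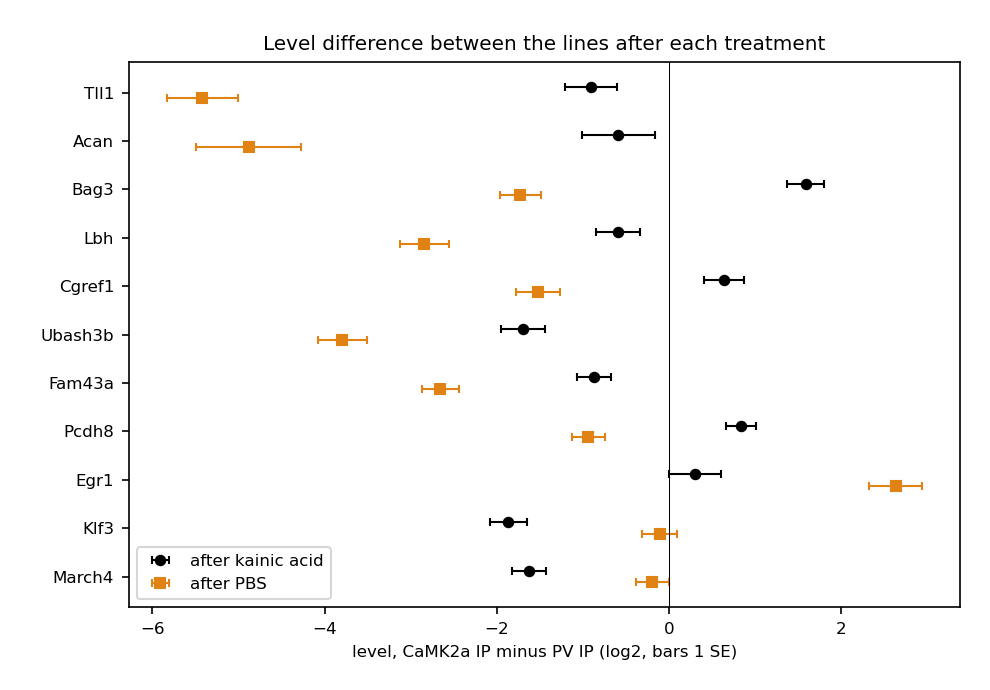
Level in the CaMK2a IP minus level in the PV IP (log2, with 1 SE) for the 11 genes with a called difference, after kainic acid (black) and after PBS (orange). Tll1, Acan and Lbh approach 0 after kainic acid from far below it, Egr1 approaches 0 from above, and Bag3, Pcdh8 and Cgref1 cross it.

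The input libraries, which sample total CA1 RNA of both lines, had no called difference of kainic acid effects: 0 of 11816 genes (0.0%) in either direction by edgeR, with 336 at an unadjusted p under 0.05 and 4 called by DESeq2. Tll1 averaged 51.3 ± 7.40 CPM in CaMK2a inputs after kainic acid and 3.14 ± 1.28 after PBS, and 65.9 ± 13.2 in PV inputs after kainic acid and 5.63 ± 0.845 after PBS (SD, n = 3, 3, 4 and 4). For Bag3 the input means were 201 ± 32.6 CPM after kainic acid and 13.4 ± 2.73 after PBS in the CaMK2a line, and 101 ± 40.7 and 9.68 ± 1.19 in the PV line. The PBS level of Tll1 was thus low in the inputs of both lines, unlike in the PV IP. Some marker levels differed between the inputs of the lines (CPM scaled over all 28 libraries). Pvalb averaged 23.5 after kainic acid and 27.3 after PBS in CaMK2a inputs, and 5.99 and 11.7 in PV inputs. The pyramidal marker Slc17a7 averaged 1107 and 1185 in CaMK2a inputs, and 664 ± 274 and 721 ± 318 in PV inputs. Gad1 was closer after PBS, at 155 and 149. The part of this in the input differences was not tested. Acan averaged 141 ± 25.5 CPM in CaMK2a inputs after kainic acid and 5.14 ± 2.08 after PBS, and 41.6 ± 17.6 in PV inputs after kainic acid and 3.90 ± 1.00 after PBS. Its input difference of 1.36 ± 0.45 was the highest of the 11 genes (unadjusted p = 0.0081, adjusted p = 1.0).

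In a fit of all 28 libraries the IP difference minus the input difference was called higher in 2 of 12194 genes (0.0164%) and lower in 0 (0.0%), with 461 at an unadjusted p under 0.05 and 10 called higher and 7 lower by DESeq2. The 2 genes were Tll1, at 4.09 ± 0.63 (adjusted p = 0.006), and Bag3, at 2.82 ± 0.48 (adjusted p = 0.013). The count was 1 without CaMK2a PBS replicate 3 of the IP, CaMK2a kainic acid replicate 2 of the input or CaMK2a PBS replicate 2 of the input, and 4 higher with 1 lower without PV kainic acid replicate 4 of the IP. It was 2 higher and 1 lower without CaMK2a kainic acid replicate 1 of the IP. The other 9 had values from -2.56 to 2.94 with the sign of their IP difference and adjusted p from 0.16 to 1.0. For those 9 an IP difference beyond that of the inputs was not called in this fit of group means, which holds no term for replicate. More genes were called with a replicate block or with PV replicates 1 to 3 alone, as given below, so the lack of a call depends on the model.

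**Figure D4:**
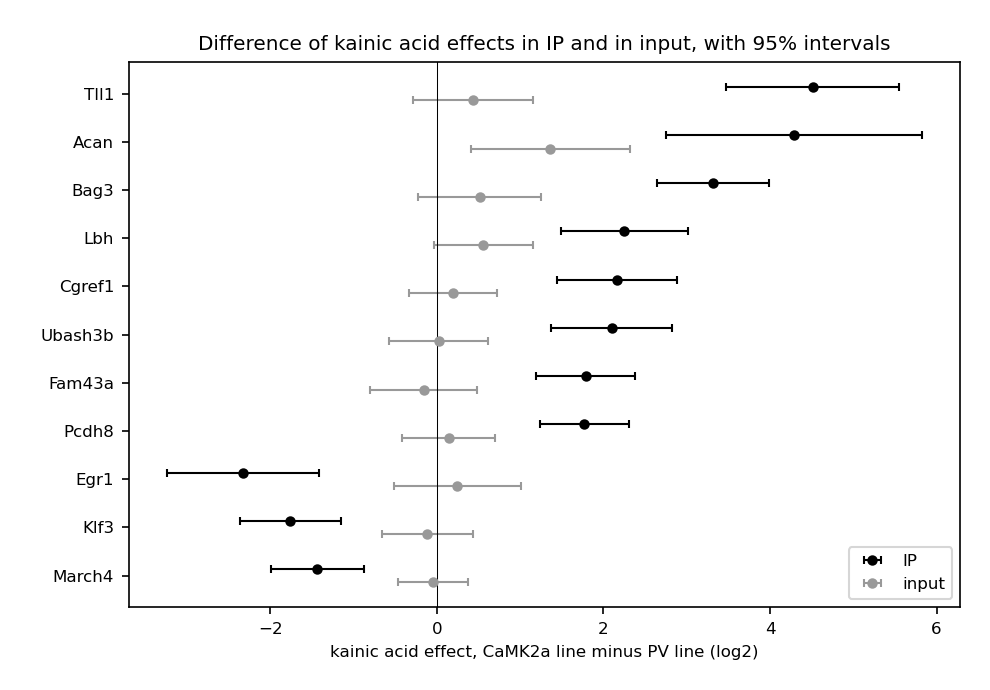
Kainic acid effect in the CaMK2a line minus that in the PV line (log2, with 95% intervals) for the 11 called genes, in the IP (black) and in the input (grey). Input differences lie between -0.16 and 0.56 for 10 genes and at 1.36 for Acan, and the IP intervals of Tll1 and Bag3 do not reach their input intervals.

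Induction that was alike in both lines was described only where the 95% interval of the difference lay inside 2-fold. Of 409 genes that rose in both lines (3.47%), 152 (1.29% of all tested) met this rule, 7 had a called difference and 250 had neither. Of 59 that fell in both (0.501%), 22 (0.187%) met the rule. Over all tested genes 31.9% had an interval inside 2-fold, against 37.2% of those that rose in both and 37.3% of those that fell in both. Shared rises numbered 90 to 96 without PV kainic acid replicate 3 or PV PBS replicate 1, 2 or 3. Shared falls numbered 6 to 11 and falls in both lines 19 to 35 without any 1 PV library of replicates 1 to 3, and 41 and 93 without PV kainic acid replicate 4. No gene was called in opposite directions in the 2 lines, and 1 to 3 were without PV kainic acid replicate 1 or 4 or PV PBS replicate 4. In the separate line fits, whose counts differ in order from those of the 14-library fit, a further 3274 genes were called in the CaMK2a IP alone, of which 4 had a called difference and 1266 an interval inside 2-fold, and 70 were called in the PV IP alone, of which 0 and 1 did. Across the 10430 genes tested in both lines the effects had a Pearson r of 0.72, a description across genes, which are not independent replicates.

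The shared rises with the greatest smaller effect were led by Hspa1b, an inducible heat shock chaperone. Hspa1b had 307, 139 and 374 CPM in the CaMK2a IP after kainic acid, against 3.20, 3.36 and 2.03 CPM after PBS, and 31.9, 22.5, 56.4 and 68.8 CPM in the PV IP after kainic acid, against 0.666, 0.605, 0.327 and 0.212 CPM after PBS. Kainic acid and PBS libraries were far apart in both lines. The effects of 6.59 ± 0.40 and 6.63 ± 0.51 had a difference of -0.04 ± 0.41 (95% interval -0.90 to 0.81). The error of 0.41 came from the fit with a spread shared by both lines and is below the PV line error of 0.51. The separate line errors of 0.40 and 0.51 would give a wider interval. Hspa1b is thus inside 2-fold by the shared-spread fit and not by its own line errors. Its near-identical copy Hspa1a had a difference of 1.76 ± 0.76 (adjusted p = 0.78), and since reads can be split between the copies, their separate values are uncertain. The PV PBS value of Hspa1b rests on 8, 8, 4 and 3 reads.

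Pcsk1 encodes a convertase that cleaves prohormones in secretory granules. It had 554, 249.5 and 468 CPM in the CaMK2a IP after kainic acid, against 37.7, 27.4 and 38.7 CPM after PBS, and 175, 124, 213 and 189 CPM in the PV IP after kainic acid, against 13.9, 15.3, 14.7 and 14.5 CPM after PBS. All CaMK2a libraries were above all PV libraries of the same treatment, and the effects of 3.62 ± 0.28 and 3.60 ± 0.22 left a difference of 0.03 ± 0.33 (95% interval -0.67 to 0.73). Feedback inhibitors of growth factor and kinase signalling were also among the 10. Errfi1, which blocks the epidermal growth factor receptor, had effects of 2.86 and 2.75 in the CaMK2a IP and the PV IP. Dusp4, a phosphatase of MAP kinases, had effects of 2.32 and 2.33, and Trib1, a pseudokinase, 2.90 and 2.83. Rgs4, which speeds the shut-off of G proteins, had 2099.7, 1170.3 and 1607 CPM in the CaMK2a IP after kainic acid, against 344, 278 and 332 CPM after PBS, and 1072, 996, 1161 and 926 CPM in the PV IP after kainic acid, against 167, 144, 181 and 115 CPM after PBS, with a difference of -0.42 ± 0.26 (95% interval -0.97 to 0.13). The exchange factor Rasgef1b, the co-chaperone Dnajb1, the histone demethylase Kdm6b and the transcription factor Sox11 completed the 10, with effects between 2.17 and 2.50 in either line. In each of the 10 genes kainic acid and PBS libraries did not overlap in either line.

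The shared falls were smaller. Neurl1b, a ubiquitin ligase that acts on Notch ligands, had 22.3, 32.4 and 29.8 CPM in the CaMK2a IP after kainic acid, against 74.0, 75.6 and 93.1 CPM after PBS. The PV IP held 21.9, 32.5, 20.0 and 18.1 CPM after kainic acid and 91.7, 35.4, 70.6 and 43.6 CPM after PBS. No kainic acid library reached a PBS library of its line, and the effects were -1.50 and -1.37 in the CaMK2a IP and the PV IP. Ccdc85a, the sulfotransferase Gal3st3, the zinc finger gene Zfp239 and Fam163b had effects between -1.13 and -0.91 in either line, with differences between -0.16 and -0.07, and their groups did not overlap.

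Promoters are shown for both genes called in every alternative and for the leading pair of shared rises. Below are the 250 bases before the RefSeq start (GRCm38.p6) of Bag3 (chr7:128523333-128523582, plus strand), Tll1 (chr8:64206009-64206258, minus strand), Pcsk1 (chr13:75089607-75089856, plus strand) and Hspa1b (chr17:34959239-34959488, minus strand), 5′ to 3′ on the gene's strand.
Bag3: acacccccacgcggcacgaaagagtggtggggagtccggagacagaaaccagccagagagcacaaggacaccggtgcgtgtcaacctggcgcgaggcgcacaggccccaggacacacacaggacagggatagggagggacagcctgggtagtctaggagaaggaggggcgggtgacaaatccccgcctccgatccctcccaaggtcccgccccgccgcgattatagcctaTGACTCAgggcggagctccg
Tll1: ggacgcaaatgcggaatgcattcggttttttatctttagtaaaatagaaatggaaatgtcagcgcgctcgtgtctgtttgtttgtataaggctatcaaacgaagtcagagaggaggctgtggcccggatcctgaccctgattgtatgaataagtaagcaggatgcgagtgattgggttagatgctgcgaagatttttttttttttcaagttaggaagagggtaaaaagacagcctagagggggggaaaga
Pcsk1: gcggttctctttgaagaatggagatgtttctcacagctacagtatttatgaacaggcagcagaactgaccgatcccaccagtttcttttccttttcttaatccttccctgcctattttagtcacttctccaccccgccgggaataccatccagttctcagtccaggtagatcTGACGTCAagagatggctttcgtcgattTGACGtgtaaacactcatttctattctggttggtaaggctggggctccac
Hspa1b: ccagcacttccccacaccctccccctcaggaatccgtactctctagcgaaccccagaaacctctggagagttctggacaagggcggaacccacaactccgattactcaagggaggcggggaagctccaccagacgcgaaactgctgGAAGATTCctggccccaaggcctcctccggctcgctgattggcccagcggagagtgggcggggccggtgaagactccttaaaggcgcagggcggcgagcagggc
Capitals mark matches, on either strand, to the heat shock element GAANNTTC, the AP-1 site TGANTCA, the cyclic AMP response element (CRE) TGACGTCA or its shorter core TGACG, which is also part of the full CRE. Bag3 had an AP-1 match beginning 20 bases before its start, Pcsk1 a CRE beginning 78 bases before and a lone core beginning 50 bases before, Hspa1b a heat shock element beginning 104 bases before, and Tll1 had none of the 4 in these letters. In windows of 250 bases before to 50 after the first listed start of each of 27025 genes, the heat shock element occurred in 7.95%, the AP-1 site in 7.93%, the CRE in 1.88% and the core in 21.0%. At the first listed start, among the 10 of 11 called genes with a listed promoter, 1 held a heat shock element (Bag3, after its start), 2 an AP-1 site, 0 a CRE and 4 a core, and among 7 of the 10 named shared rises these were 1, 0, 1 and 4. Another listed start of Errfi1, one of the named shared rises, had a CRE beginning 51 bases before it and is outside these counts. The matches are a description and not bound sites.

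Several other genes known from seizure and activity studies rose in both lines and their differences were not called, unlike those of Egr1 and Pcdh8 above. Fos had 603, 325 and 539 CPM in the CaMK2a IP after kainic acid, against 4.22, 4.01 and 4.54 CPM after PBS, and 257, 252, 329 and 919 CPM in the PV IP after kainic acid, against 1.58, 2.04, 3.11 and 2.05 CPM after PBS. The lines overlapped after kainic acid, with PV replicate 4 the highest of the 14 libraries, and the difference was -0.80 ± 0.57 (adjusted p = 0.93). Fosb and Npas4, also immediate early transcription factors, had differences of -1.45 ± 0.54 and -0.48 ± 0.68 (adjusted p = 0.66 and 0.98). Inhba, which encodes the activin A subunit, had 3517, 2398 and 3318 CPM in the CaMK2a IP after kainic acid, against 21.8, 26.7 and 29.5 CPM after PBS, and 1708, 1791, 1873 and 701 CPM in the PV IP after kainic acid, against 14.3, 16.8, 20.2 and 3.19 CPM after PBS. PV replicate 4 was the lowest PV library for Inhba under both treatments, and the difference was 0.09 ± 0.55 (95% interval -1.07 to 1.24), which reaches beyond 2-fold in both directions. With PV replicates 1 to 3 alone the differences were -0.17 for Fos and 0.13 for Inhba, again not called.

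Bdnf, a neurotrophin, and Nptx2, a secreted pentraxin that clusters AMPA receptors, rose in both lines. Bdnf had 982, 542 and 788 CPM in the CaMK2a IP after kainic acid, against 74.1, 60.3 and 77.5 CPM after PBS, and 271, 296, 418 and 265 CPM in the PV IP after kainic acid, against 22.5, 16.4, 19.4 and 17.8 CPM after PBS. Its CaMK2a libraries were the higher under both treatments, and its difference was -0.59 ± 0.29 (adjusted p = 0.81). The Nptx2 effects were 4.03 and 4.66 in the CaMK2a IP and the PV IP, with a difference of -0.64 ± 0.36 (adjusted p = 0.89). Scg2, a granin of dense-core granules, had 6074, 3454 and 4917 CPM in the CaMK2a IP after kainic acid, against 499, 459 and 498 CPM after PBS, and 1384, 1493, 1885 and 2301 CPM in the PV IP after kainic acid, against 351, 302, 318 and 236 CPM after PBS. All CaMK2a libraries after kainic acid were above all PV libraries, and the difference of 0.76 ± 0.28 was not called (adjusted p = 0.65). Rgs2, a regulator of G protein signalling, had a difference of 1.49 ± 0.35 with the same outcome (adjusted p = 0.19), although 4 of 25 alternatives called it. Just outside the threshold were Tox3 at -1.97, Vmp1 at -1.22, Gprc5b at 1.35, Pthlh at 3.82 and Sstr3 at 1.51, with adjusted p from 0.078 to 0.086.

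Lists of genes by role are set beside a median difference of 0.04 over all 11781 genes, of which 6291 were positive and 5490 negative, and beside a median input difference, CaMK2a input minus PV input, of 0.03. Counts of rises and falls in the lists are read against the shares over all genes, 19.8% rising and 15.3% falling in the CaMK2a IP and 4.05% and 0.801% in the PV IP. All 24 tested of 26 inducible transcription factors rose in the CaMK2a IP and 23 of 24 rose in the PV IP, Klf10 being the exception (adjusted p = 0.052). Their median effect was 2.59 in the CaMK2a IP and 3.84 in the PV IP, 22 of 24 differences were negative with a median of -0.80, and 1, that of Egr1, was called. The median input difference of the list was 0.16. Egr2, a relative of Egr1, had effects of 4.12 and 6.45 and a difference of -2.31 ± 0.59 (adjusted p = 0.28), with 3 to 8 reads in each PV PBS library. Only Nr4a3 and Ier5, of these 24, had an interval inside 2-fold. The median level difference of the list, CaMK2a IP minus PV IP, was 1.16 after PBS and 0.24 after kainic acid, beside -0.06 and 0.01 over all genes. The list's median difference was -0.83 with relative log expression and -0.86 with upper-quartile scaling, and 22 differences stayed negative under each. PV kainic acid replicate 4 was the highest PV library for Egr1, Fos, Fosb and Npas4, but not for Egr2. The list median was not taken with PV replicates 1 to 3 alone, where the Egr1 difference was -1.99. The part of replicate 4 in the list median was not tested.

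Activity-regulated effectors had a positive median difference. Of 33 tested of 34 listed, 32 rose in the CaMK2a IP and 29 of 32 tested rose in the PV IP. The median effect was 3.76 in the CaMK2a IP and 2.78 in the PV IP, 21 of 33 differences were positive, with a median of 0.39, and Tll1, Acan and Pcdh8 were called. The median input difference was 0.23. In contrast, Homer1, a postsynaptic scaffold protein, and Nptx1, Nrn1, Pcsk1 and Rgs4 rose in both lines with an interval inside 2-fold. Plk2, a kinase that acts on synaptic strength, had a difference of -0.85 ± 0.19 (adjusted p = 0.13), and Baz1a, a chromatin remodelling subunit, 2.23 ± 0.57 (adjusted p = 0.3). MAP kinase feedback inhibitors had a median difference of -0.01 over 13 tested of 14, with 12 rises in the CaMK2a IP, 8 in the PV IP and no called difference. Dusp4, Errfi1 and Spred2 were the shared rises among them.

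Heat shock and other stress genes had positive median differences as well. Of 19 heat shock chaperones, all tested, 14 rose in the CaMK2a IP and 7 in the PV IP, 18 of 19 differences were positive with a median of 0.51, and Bag3 alone was called. The median input difference of the list was 0.42, close to that in the IP. Hspa1b, with the limit given above, Dnajb1 and Dnajb5 were shared rises. Stip1, which links heat shock proteins, had a difference of 0.71 ± 0.23 and Hsp90aa1 0.63 ± 0.25 (adjusted p = 0.53 and 0.71). Median levels of the list, CaMK2a IP minus PV IP, were -0.08 after PBS and 0.62 after kainic acid. Endoplasmic reticulum stress genes had a median difference of 0.22 over 18 tested of 19, with 11 rises in the CaMK2a IP, 2 in the PV IP and Atf4 as the shared rise, where 19.8% of all genes rose in the CaMK2a IP and 4.05% in the PV IP. Cholesterol synthesis and uptake genes had a median of 0.46 over 21 tested of 23, with 11 rises in the CaMK2a IP and 4 in the PV IP, Cyp51 at 1.14 ± 0.34 and Hmgcs1 at 0.84 ± 0.22 (adjusted p = 0.4 and 0.31). Glycolysis and lactate transport genes stood at 0.09 over 21 tested of 22, with 10 rises in the CaMK2a IP and 3 in the PV IP. Median input differences were 0.18 for endoplasmic reticulum stress, 0.28 for cholesterol and 0.17 for glycolysis genes, and no difference was called in these 3 lists.

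Neuropeptide precursors, 20 tested of 21, had a median difference of 0.52, with 14 of 17 rising in the CaMK2a IP, 11 of 19 rising in the PV IP and none called. Of the 20 differences 11 were positive and 9 negative, so the members did not lean to 1 side. The median input difference of the list was 0.43, close to that in the IP. Pthlh, a secreted relative of parathyroid hormone, had a difference of 3.82 ± 0.79 (adjusted p = 0.086), from 10 reads in the CaMK2a PBS libraries together, and 8 of 25 alternatives called it. Npy and Sst, peptides of other interneurons, had differences of 1.97 ± 0.53 and 1.26 ± 0.34 (adjusted p = 0.31 and 0.31). Sst averaged 829 ± 369 CPM after kainic acid in the CaMK2a IP and 96.5 ± 18.1 after PBS, and 841 ± 104 in the PV IP after kainic acid and 234 ± 21.9 after PBS. In the same libraries 12 measured of 14 markers of other interneurons, Sst and Npy among them, were summed. The sum ran from 832 to 1547 CPM after kainic acid in the CaMK2a IP and 326 to 424 after PBS. In the PV IP the sum ran from 1383 to 1591 after kainic acid and 655 to 773 after PBS. Sst made up much of the sum after kainic acid, so its rise largely repeats that of Sst. The part of other interneurons in these results was not tested. Dense-core granule proteins had a median difference of -0.01 over 12 tested of 14, with 7 rises and 2 falls in the CaMK2a IP and 3 rises in the PV IP.

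Matrix and perineuronal net genes had a median difference of 0.39 over 22 tested of 25, and 2, Tll1 and Acan, were called. The median input difference was 0.02. In the CaMK2a IP 11 of 19 rose and 2 fell, and in the PV IP 8 of 22 rose and 1 fell. The TGF-beta and activin pathway had a median of 0.09 over 27 tested of 34, with 14 rises and 4 falls of 25 in the CaMK2a IP and 8 rises of 26 in the PV IP, and Tll1 was its called member. Its ligand Tgfb2 and receptor Acvr1 were shared rises, while the ligand Tgfb3 had a difference of 1.66 ± 0.51 (adjusted p = 0.45). Cytokine and inflammatory genes had a median of -0.63 over 18 tested of 22, with 10 rises of 12 in the CaMK2a IP, 11 of 15 in the PV IP and no called difference. Some members were near the floor. Il1b and Ccl2 had 0 reads in every PV PBS library, and Ccl2 and Ccl3 each had 1 read in the CaMK2a PBS libraries together. Reactive astrocyte genes had a median of 0.15 over 20 of 20 listed, with 10 rises of 13 in the CaMK2a IP and 11 of 17 in the PV IP. Ptx3, a secreted pentraxin, and the membrane protein gene Emp1 had the most negative differences with a rise in both lines there, -3.80 ± 0.96 and -3.46 ± 0.95 (adjusted p = 0.28 and 0.33). These values rest on few reads in the PV PBS libraries, 0, 0, 2 and 2 for Ptx3 and 6, 1, 0 and 7 for Emp1. Astrocyte markers, 12 measured of 14, summed to a median of 1939 CPM after kainic acid in the CaMK2a IP and 1559 after PBS, against 6038 and 5731 in the PV IP, and 13 of 13 microglial markers to 76.7 and 53.2 CPM, against 178 and 176. Their part in these lists was not tested. Glucocorticoid-responsive genes had a median of 0.11 over 15 tested of 16, with 9 rises in the CaMK2a IP, 8 in the PV IP and 3 shared.

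Receptor and channel genes had called falls in the CaMK2a IP. Glutamate receptor genes, 15 tested of 22, had 7 falls in the CaMK2a IP and none in the PV IP, with a median difference of -0.10, and sodium and calcium channel genes, 19 tested of 23, had 9 falls and none, with a median of -0.14. Over all genes 15.3% fell in the CaMK2a IP and 0.801% in the PV IP, so a list of this size with no fall in the PV IP is near the share over all genes. GABA receptor genes had 6 falls and 2 rises of 14 in the CaMK2a IP, none called in the PV IP and a median of -0.22, while 32 tested of 39 potassium and HCN channel genes had 10 rises and 12 falls in the CaMK2a IP, 1 rise in the PV IP and a median of -0.01. No difference between lines was called in these 4 lists, so a call in 1 line does not show that the lines differ. Median differences of the marker lists were -0.24 for pyramidal cells, -0.01 for PV interneurons, 0.26 for other interneurons, 0.10 for dentate granule cells, -0.13 for CA2 and CA3 neurons, 0.20 for astrocytes, 0.15 for oligodendrocytes, 0.44 for microglia and -0.33 for vessels, and no marker had a called difference.

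**Figure D5:**
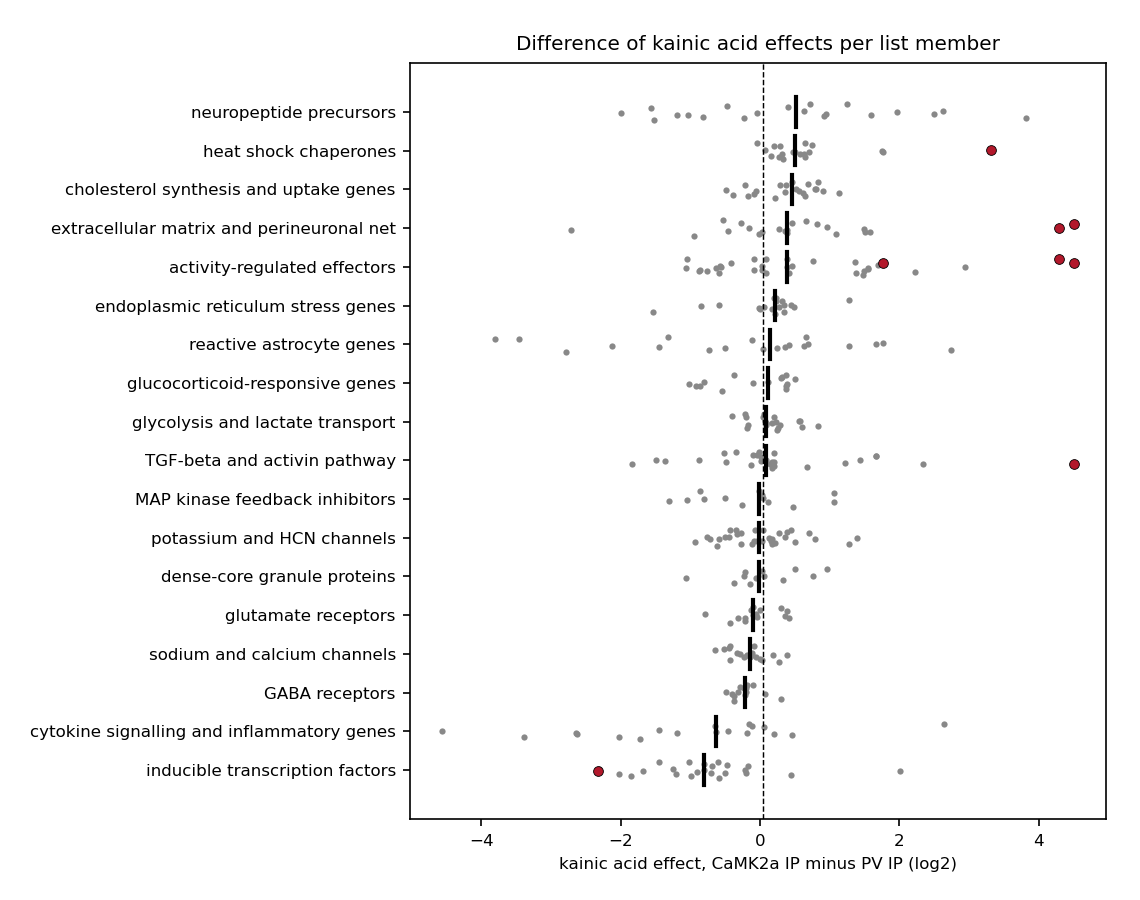
Difference of kainic acid effects, CaMK2a IP minus PV IP (log2), for the tested members of 18 lists (grey points), with list medians (black bars), called genes in red and the median of all genes, 0.04, dashed. Inducible transcription factors have the lowest median, -0.80, and neuropeptides and heat shock chaperones the highest, 0.52 and 0.51. Positive differences number 11 of 20 for neuropeptides and 18 of 19 for heat shock chaperones. Median input differences of these 3 lists, not drawn, were 0.16, 0.43 and 0.42.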

How the data were processed

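RNA of anti-HA immunoprecipitates and of inputs from hippocampal CA1 was measured in 28 libraries of 75 bp single-end reads from SPIA-amplified cDNA, per the labels. The authors aligned reads with BWA to mm10 (GRCm38) and compared groups with edgeR, per the submitters' processing notes, versions not given there. The deposited tables hold whole-number read counts per coding gene and library, with genes higher and lower in a comparison in separate tables, which were joined here. The CaMK2a IP had 13384 genes and the PV IP 13895, and the 13083 in both entered the difference. The 301 and 812 genes of 1 line alone had no difference. Rpl22 and Gfap were not analysed here. Strandedness is not stated.

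Groups follow the labels. Counts were analysed with edgeR 4.0.16 quasi-likelihood tests in R 4.3.3, scaled by TMM after filterByExpr (minimum count 10). The prior count was 0.125, and the threshold a Benjamini-Hochberg adjusted p of 0.05. Each line was fitted alone. The difference was a contrast of 4 group means over 14 libraries, and the IP minus input difference 1 of 8 group means over 28. The labels call replicates separate pools of mice. Response lists (18) and marker lists (9) got counts and medians and no test. Genes described one by one were those with a called difference and mean log2 CPM of at least 3 (up to 12 a direction), the 10 shared rises and 5 shared falls with the greatest smaller effect, and 11 fixed genes. Up to 3 members of a list with the greatest differences were also open to naming. Other list members, the genes just outside the threshold and the shared members of lists were named after their values were seen. The members and lists were chosen with earlier results of these data known.

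Alternatives tried were upper-quartile and relative log expression (RLE) scaling, a stricter or no filter, DESeq2 1.42.0, limma 3.58.1 voom with quality weights, a replicate block, PV replicates 1 to 3, a term for PV replicate 4, all 28 libraries in 1 fit, the difference of separate line fits, an interval inside 1.5-fold, and each library left out in turn. Linear gains and level differences between lines were added after seeing the data. The scripts were tested on simulated data. IP libraries held 7.48 to 15.8 M counts, which sets the counting precision, and intervals cover the spread between these libraries. Promoters came from RefSeq (GRCm38.p6), which lists March4 as Marchf4. Python 3.11.15, numpy 2.4.6, pandas 2.3.3 and matplotlib 3.10.9 were used.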

Additional observations from a re-analysis of the deposited data

Results flagged for a closer look

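In 68 groups of 4 PV libraries (34 genes, kainic acid and PBS), 4 held a library far from the other 3, where chance alone gives about 1 in 20. PV kainic acid replicate 4 was high for Fos, with 919 CPM, and low for Inhba, with 701 CPM. PV PBS replicate 1 was high for Dusp4, with 13.8 CPM, and PV PBS replicate 4 was low for Fam163b, with 140 CPM (139.7 before rounding).

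The kainic acid effect differed between the CaMK2a IP and the PV IP by the edgeR test of the difference in 11 genes. The log2 difference, CaMK2a minus PV, was 4.51 for Tll1, 4.29 for Acan, 3.31 for Bag3, 2.25 for Lbh, 2.17 for Cgref1, 2.10 for Ubash3b, 1.79 for Fam43a and 1.77 for Pcdh8. It was -2.33 for Egr1, -1.76 for Klf3 and -1.43 for March4. The IP difference also exceeded the input difference for Tll1, by 4.09, and for Bag3, by 2.82.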

How the results depend on the processing

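Tll1 and Bag3 were called in all 25 alternatives, and no difference of the 11 genes changed sign in a tested fit. On the linear scale the Acan gain was reversed, 2.27 CPM less in the CaMK2a IP than in the PV IP (-2.27). The cause of this and of the shifts below was not tested. Counts below compare with 8 higher and 3 lower differences, 2111 rises and 1633 falls in the CaMK2a IP, 450 and 89 in the PV IP, 0 and 0 in the input difference, 2 and 0 in the IP minus input difference, and 152 shared rises, 22 shared falls and 59 falls in both. DESeq2 gave 23 and 20 differences, 209 falls in the PV IP, 4 higher input differences, 10 and 7 IP minus input differences, 46 shared falls and 118 falls in both. It called 22 rises and 11 falls biased to the CaMK2a IP, 10 and 1 biased to the PV IP, and 4 genes opposite. PV replicates 1 to 3 gave 39 and 31 differences, 178 falls in the PV IP, 3 higher input differences, 8 and 4 IP minus input differences, 58 shared falls, 94 falls in both, 33 rises and 25 falls biased to CaMK2a, 6 and 9 biased to PV, and 4 opposite. A term for PV replicate 4 gave 17 and 11 differences, 681 rises and 250 falls in the PV IP, 5 and 1 input differences, 8 and 2 IP minus input differences, 269 shared rises, 95 shared falls, 160 falls in both, 15 rises and 7 falls biased to CaMK2a, 4 and 4 biased to PV, and 3 opposite. All 28 libraries in 1 fit gave 22 and 11 differences, separate line fits 90 and 38, and voom 5 lower. The 14-library fit gave 714 rises and 235 falls in the CaMK2a IP and 765 and 345 in the PV IP. Upper-quartile factors gave 35 shared falls and 0 rises biased to PV, and an interval inside 1.5-fold 15 shared rises and 1 shared fall.

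Replicate numbers did not pair the libraries of either line throughout: same-numbered kainic acid and PBS libraries had r of -0.07, -0.18 and 0.15 in the CaMK2a IP and 0.05, 0.04, 0.05 and 0.36 in the PV IP. The libraries of PV replicate 4 did deviate together, with r of -0.12 to -0.10 against replicates 1 to 3. In the PV IP each kainic acid library correlated best with the PBS library of its own number, PBS replicate 2 did not, and in the CaMK2a IP kainic acid replicates 1 and 2 did not. With the replicate block, 14 differences were higher, 248 genes fell in the PV IP, input differences numbered 5 and 2, IP minus input differences 9 and 6, shared rises 249, shared falls 87, falls in both 153, biased rises 13 to CaMK2a and 2 to PV, falls biased to PV 2, and opposite genes 5.

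With 1 library left out, differences numbered 2 to 18 higher and 0 to 6 lower, rises 1479 to 2318 and falls 979 to 1924 in the CaMK2a IP, rises 329 to 586 and falls 30 to 164 in the PV IP, input differences 0 and 0, and IP minus input differences 1 to 4 and 0 to 1. Shared rises numbered 90 to 203, shared falls 6 to 41, rises in both 302 to 495, falls in both 19 to 93, rises biased to CaMK2a 2 to 15 and to PV 0 to 3, falls biased to CaMK2a 0 to 4 and to PV 0 to 3, and opposite genes 0 to 3. The median difference over all genes was 0.04 with TMM, 0.00 with relative log expression and 0.01 with upper-quartile factors. Low PBS counts limit the fold of Tll1, Acan, Hspa1b, Egr2, Pthlh, Ptx3 and Emp1, among others, and the PV spread limits what is called.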

Other observations

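With PV replicates 1 to 3 alone, 70 genes had a called difference. The single genes given here were chosen after their values were seen, and no group was counted or tested in this setting. The chaperone genes Hspa4, Hspa8 and Hsp90aa1 had higher kainic acid effects in the CaMK2a IP, by 0.95 ± 0.16, 0.92 ± 0.19 and 0.84 ± 0.16 on the log2 scale (SE, edgeR adjusted p from 0.018 to 0.045). The effect of the spectrin gene Sptb, whose product lies under the cell membrane, was higher by 1.25 ± 0.19. The transcriptional regulators Lmo4 and Mef2a had lower effects in the CaMK2a IP, by -1.29 ± 0.17 and -0.80 ± 0.16, and so did Camk2a itself, at -0.57 ± 0.11. With all 14 libraries Camk2a had a value of -0.43 and was not called.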
